A study of Mus musculus with 30 samples.

Results

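Fragments of spliceosomal snRNAs were examined in small RNA libraries from the prefrontal cortex of WT and AD mice. All 1383 transcripts that GENCODE vM21 gives the biotype snRNA were taken as the reference, and a deposited sequence was counted as an snRNA fragment where its whole length matched 1 of them exactly in the sense direction. This gave 26841 distinct snRNA sequences of 121943883 distinct sequences in all, of which PANDORA-seq read 25200 and traditional-seq read 6327. Copies of the same snRNA were summed by symbol prefix into 7 families, namely U1 (Rnu1, 4 transcripts), U2 (Rnu2, 1), U5 (Rnu5, 1), U6 (Rnu6, 2), U7 (Rnu7, 1), U11 (Rnu11, 1) and U12 (Rnu12, 1). No transcript of the annotation has the symbol prefix Rnu4, and 1372 transcripts carry no Rnu symbol at all. These were grouped by sequence likeness, and 9 such groups reached a median of 1 RPM (reads of a sequence per 1000000 reads of the library) in at least 1 group of libraries. The other 199 groups with reads each averaged at most 0.340 RPM in PANDORA-seq and 0.437 RPM in traditional-seq, and are not described further.

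The study used 6-month-old hemizygous 5xFAD mice, a transgenic Alzheimer's disease model in which a neuronal Thy1 promoter drives human transgenes with familial mutations, and WT littermates, both sexes, on a C57BL/6J background. RNA of 15 to 50 nt was cut from a gel and sequenced with untreated ends in 7 WT and 7 AD traditional-seq libraries. The 8 WT and 8 AD PANDORA-seq libraries were made after treatment with T4 polynucleotide kinase (T4PNK), which repairs RNA ends, and with AlkB, a demethylase that removes base methylations able to stop reverse transcription. The group sizes that the study states in mice equal these numbers of libraries, so each library was taken as 1 mouse and p-values measure the spread between mice. The names of 14 pairs of libraries, 1 of each protocol, share a code, but the labels do not state whether these came from the same mice. Tests between protocols took all 30 libraries as independent.

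Small nuclear RNAs are the RNA cores of the particles that splice pre-mRNA. U1 pairs with the 5′ splice site and U2 with the branch point, and U4, U5 and U6 join them as a preassembled unit in which U6 is released from U4 to form the catalytic centre with U2. A minor spliceosome for a small class of introns uses U11, U12, U4atac and U6atac in the places of U1, U2, U4 and U6, and shares U5. Except for U6 and U6atac, these RNAs carry a trimethylguanosine cap and a ring of Sm proteins on a short U-rich site. U7 is an Sm-type RNA outside the spliceosome that guides 3′ end cleavage of histone pre-mRNA. Neurons depend heavily on splicing, and intact snRNAs are longer than the fragments a small RNA library can hold.

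Some of the RNAs are printed here because the positions given later refer to them. In each, the capitals mark the most abundant PANDORA-seq fragment of that RNA. The sequences are the GENCODE vM21 transcripts on GRCm38. U1 is Rnu1a1 (chr11:87422867-87423030, plus strand) and U2 is Rnu2-10 (chr11:101658238-101658428, plus strand). U11 is Rnu11 (chr4:132270080-132270213, minus strand) and U12 is Rnu12 (chr15:83149644-83149794, plus strand). Gm24265 (chr5:115489459-115489599, plus strand) has no snRNA name in the annotation and carries the well-known sequence of U4.
U1: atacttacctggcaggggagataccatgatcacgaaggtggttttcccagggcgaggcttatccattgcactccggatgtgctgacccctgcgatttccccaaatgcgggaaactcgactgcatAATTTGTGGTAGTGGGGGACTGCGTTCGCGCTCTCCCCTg
U2: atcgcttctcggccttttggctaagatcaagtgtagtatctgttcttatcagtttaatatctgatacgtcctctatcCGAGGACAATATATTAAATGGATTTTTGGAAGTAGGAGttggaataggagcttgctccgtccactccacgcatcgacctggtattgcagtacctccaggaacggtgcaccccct
Gm24265 (U4): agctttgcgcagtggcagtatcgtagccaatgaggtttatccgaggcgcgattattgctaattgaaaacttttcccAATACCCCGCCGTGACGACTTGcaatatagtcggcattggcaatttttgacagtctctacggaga
U11: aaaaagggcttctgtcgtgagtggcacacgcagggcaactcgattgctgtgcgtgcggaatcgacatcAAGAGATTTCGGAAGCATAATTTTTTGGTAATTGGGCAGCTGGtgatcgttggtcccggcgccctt
U12: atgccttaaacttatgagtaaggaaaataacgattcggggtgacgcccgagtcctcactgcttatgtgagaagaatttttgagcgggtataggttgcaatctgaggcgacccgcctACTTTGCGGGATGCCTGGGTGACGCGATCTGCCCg

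PANDORA-seq libraries held 54926347 to 105876141 reads and traditional-seq libraries 9370669 to 17053412 reads, so low families were counted more firmly in PANDORA-seq. Reads of 43 to 45 nt made up 11.2 to 21.5% of all reads in the WT and 2.13 to 10.7% in the AD PANDORA-seq libraries, and no traditional-seq library held such reads. snRNA fragments totalled 3428 to 11698 RPM in PANDORA-seq and 411 to 1181 RPM in traditional-seq. In PANDORA-seq the total was 7308 ± 1990 RPM (SD, n = 8) in WT and 7356 ± 2193 RPM (SD, n = 8) in AD mice. The cortex label was checked with microRNAs of known cell types. The neuronal list (6 of 6 genes with reads) summed to 611 to 4157 RPM in PANDORA-seq and 20633 to 55252 RPM in traditional-seq. The oligodendrocyte list had reads for 3 of 4 genes and summed to 26.5 to 158 RPM in PANDORA-seq, and the microglial pair to 0.726 to 1.70 RPM. The liver microRNA Mir122 gave 43.2 to 258 RPM in PANDORA-seq and 13.6 to 755 RPM in traditional-seq. These lists differed in level between libraries of the same genotype, and their part in the snRNA values was not tested. In bulk tissue, fewer cells of a type and less RNA per cell cannot be told apart.

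U1 gave most of the fragments. In PANDORA-seq it took 56.6 ± 21.2% (SD, n = 16) of the snRNA reads of a library, with a range from 20.1 to 83.6%. U2 took 22.6 ± 15.3%, from 5.23 to 49.2%. U12 took 3.63 ± 1.08% and U5 3.38 ± 2.15%. Families differ in length, so levels between them were compared as RPM per 100 nt of the RNA. On this scale U1 gave 2405 ± 978 (SD, n = 16), U2 942 ± 833, U5 211 ± 168 and U12 167 ± 34.9. U4 (Gm24265 group) gave 81.1 ± 28.0 and U6 80.2 ± 52.8 RPM per 100 nt, and U7 and U11 gave 22.03 ± 8.05 and 20.3 ± 18.4. The ranges of U1 and U2 overlapped in these libraries, as did those of U5 and U12, of U4 and U6, and of U7 and U11. Fragments came from a few places of each RNA, described below, so read numbers need not scale with length. The U2 and U5 values also leave out sequences held only by unnamed copies, while U4 is a group of 40 transcripts. In traditional-seq, U1 gave 297 ± 112 RPM per 100 nt (SD, n = 14), U2 60.7 ± 27.7, U7 34.4 ± 11.7 and U12 3.93 ± 1.67.

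The spread between PANDORA-seq libraries was unlike between families. U12 lay between 169 and 347 RPM over all 16 libraries, a span of 2.06-fold. U1 spanned 3.98-fold and U4 3.25-fold. U2 spanned 17.3-fold, from 310 to 5357 RPM, U6 spanned 11.9-fold and U11 23.8-fold, from 4.42 to 105 RPM. In traditional-seq these spans were 5.81-fold for U12, 4.15-fold for U2, 3.65-fold for U6 and 4.87-fold for U11, at far lower counts. The widest spans of a named family were thus those of U11 and U2 in PANDORA-seq.

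**Figure D1:**
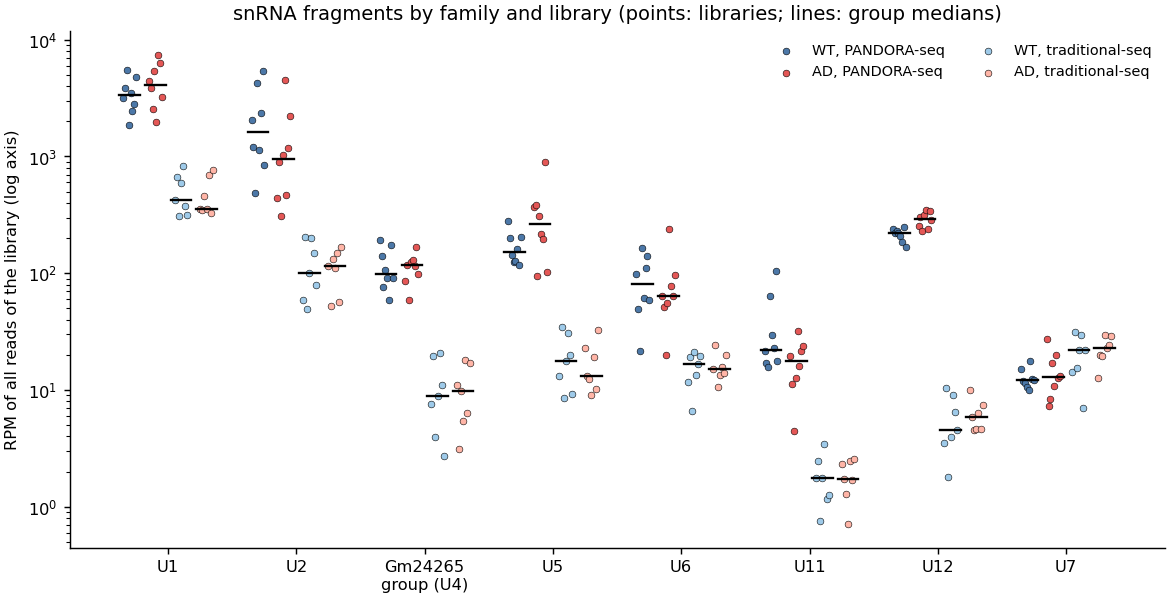
The plot gives RPM of each snRNA family on a log axis, with 1 point for each library and a line at the median of each of the 4 groups of protocol and genotype. PANDORA-seq points of U12 (169 to 347 RPM) lie far above the traditional-seq points (1.79 to 10.4 RPM), while those of U7 (7.29 to 27.4 RPM) and the traditional-seq points (6.97 to 31.5 RPM) share one range.

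Among the transcripts with no Rnu symbol, those like U2 carried the most reads, 667 ± 770 RPM (SD, n = 16) in PANDORA-seq and 10.5 ± 5.70 RPM (SD, n = 14) in traditional-seq. Their leading fragment matched 4 transcripts. A sequence that a named family also holds counted for that family, so values of unnamed copies cover only sequences that differ from it. Copies like U1 gave 74.1 ± 50.9 RPM and copies like U5 71.2 ± 48.1 RPM in PANDORA-seq, where 79.9% of the U5-like reads also matched another gene. Transcripts like U6 were the largest group in the annotation, with 594 transcripts. They gave 2.95 ± 2.09 RPM in PANDORA-seq from sequences that no named U6 transcript holds. The leading U6 fragment of PANDORA-seq matched 120 snRNA transcripts, so U6 reads cannot be assigned to the named transcripts alone. The minor spliceosome RNAs U4atac (Gm22710) and U6atac (Gm25541 group), which the annotation does not name, gave 6.84 ± 1.52 and 2.33 ± 0.682 RPM in PANDORA-seq. Every read of U4atac and of U7 also matched another annotated gene on the same strand. So did 49.9% of U6 and 5.40% of U5 reads in PANDORA-seq, and 58.1% and 49.3% in traditional-seq. Values of U4atac and U7 thus cannot be told apart from fragments of the other genes. A sequence that matched unnamed transcripts of several groups went to a mixed class of 22.6 ± 12.4 RPM.

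The 4 U1 genes fall into Rnu1a1 on chromosome 11 and Rnu1b1, Rnu1b2 and Rnu1b6 on chromosome 3, and U1b is known as the form that is more prominent in embryonic and stem cells. Fragments that differ between them made up 23.4% of U1 reads in PANDORA-seq. U1b took 0.390 ± 0.146% (SD, n = 16) of these in PANDORA-seq and 1.06 ± 1.27% (SD, n = 14) in traditional-seq. In PANDORA-seq the U1b share was 0.332 ± 0.114% in WT and 0.449 ± 0.158% in AD mice (exact permutation p = 0.110, n = 8 each, two-sided).

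PANDORA-seq was compared with traditional-seq, from which it differs in the enzyme treatment, in depth and in the longest reads held. The part of the enzymes alone was not tested. Of 16 snRNA families and groups, 14 were higher in PANDORA-seq past the permutation test, and the gain was uneven. The share of all features past this test is not given, but 94.5% of all 12339 features were higher in PANDORA-seq. U12, which takes the place of U2 in the minor spliceosome, lay at 252 ± 52.7 RPM (SD, n = 16) in PANDORA-seq and 5.93 ± 2.52 RPM (SD, n = 14) in traditional-seq, 44.7-fold higher as a ratio of geometric means. The U2-like copies were 41.5-fold higher, U5 12.4-fold, U4 12.4-fold, U2 12.1-fold, U11 11.98-fold, U1 7.98-fold and U6 4.66-fold. For each of these the permutation p over 100000 shuffles was 1e-05, the smallest this test can give. Sequences that U2-like copies share with U2 count as U2, so the fold of the copies covers only stretches that differ. The size of these folds rested on the denominator. With reads that match a transcript in place of all reads, U12 was 89.04-fold higher, the U2-like copies 82.3-fold, U5 and U4 24.6-fold, U11 24.2-fold, U2 23.9-fold, U1 15.7-fold and U6 9.22-fold, with the permutation p of each again at 1e-05. When sequences that also match another gene were left out, the U5 log2 difference was 4.64 in place of 3.64. In U12 every PANDORA-seq library lay above every traditional-seq library within each genotype too, with folds of 42.4 in WT and 47.1 in AD mice (exact permutation p = 0.000155 each).

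The level of U7 did not follow. It was 13.7 ± 4.99 RPM (SD, n = 16) in PANDORA-seq and 21.4 ± 7.25 RPM (SD, n = 14) in traditional-seq, a log2 difference of -0.62 (SE 0.20, permutation p = 0.00392). Among the 14 pairs of libraries with a shared code, PANDORA-seq was higher in 2, with a mean paired log2 difference of -0.69 (exact sign-flip permutation p = 0.00830). Within WT libraries the log2 difference was -0.55 (exact permutation p = 0.0727) and within AD libraries -0.69 (exact permutation p = 0.0315). With reads that match a transcript as the denominator in place of all reads, the U7 difference turned to 0.36 on the log2 scale (permutation p = 0.0825). Over reads of 15 to 42 nt it was -1.81 (permutation p = 1e-05), and traditional-seq held no longer reads. The U6-like copies showed no difference past the test, with a 1.20-fold ratio (permutation p = 0.384), but were 2.34-fold higher in PANDORA-seq with the matched denominator (permutation p = 0.00023).

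Libraries of the protocols did not overlap for 9 of the 16 families, all higher in PANDORA-seq. Of all 12339 RNA features with a median of 1 RPM in some group, 34.8% did not overlap in that direction and 2.57% in the other. The median log2 difference was 3.14 over the 16 families and 2.17 over all features. All features include fragments of many mRNAs, and 94.5% of them were higher in PANDORA-seq, against 15 of 16 families. Over reads of 15 to 42 nt, lengths that both protocols held, the log2 difference moved from 2.996 to 3.10 in U1, from 3.601 to 3.52 in U2, from 3.64 to 3.73 in U5 and from 5.48 to 5.61 in U12 (permutation p = 1e-05 each). PANDORA-seq libraries were also deeper, and the part of depth in these folds was not tested.

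The fragments came from a few places of each RNA. In PANDORA-seq, 23.5 ± 13.3% (SD, n = 16) of U1 reads began at position 125 and 20.999 ± 10.6% at position 147, and 61.8 ± 11.7% ended at position 163, 1 base before the end of the RNA. In traditional-seq, 39.1 ± 10.3% (SD, n = 14) of U1 reads began at position 147 and 63.7 ± 16.9% ended at position 164, the last base. U1 fragments of both protocols thus came mainly from the 3′ stem-loop, and 80.3 ± 5.73% (PANDORA-seq) and 92.0 ± 4.57% (traditional-seq) of its reads had their centre past the midpoint of the RNA.

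U2 fragments differed more between protocols. In PANDORA-seq they began most often at positions 78 (14.6 ± 8.65%) and 29 (13.2 ± 11.3%) and ended most often at 115 (26.9 ± 15.3%), and 60.1 ± 12.7% lay past the midpoint. In traditional-seq the leading start was position 30 (11.4 ± 4.90%), the leading end position 77, and 20.8 ± 4.98% lay past the midpoint. The ranges of this share, 34.0 to 78.7% and 10.01 to 27.1%, did not overlap. U5 showed the same kind of contrast. Its PANDORA-seq fragments began most often at position 44 (31.2 ± 26.4%) and 68 (25.1 ± 20.5%), and the leading ends were 80 (47.8 ± 27.5%) and 89 (26.4 ± 19.6%). In traditional-seq the leading start was 13 (13.8 ± 4.58%) and the leading end 30 (10.2 ± 3.45%), while its most abundant single sequence ran from 68 to 90 and coverage peaked at position 70 in both protocols. Past the midpoint lay 88.9 ± 7.81% of its reads in PANDORA-seq, whereas traditional-seq had 49.0 ± 14.1% there. Of the U5 reads, 5.40% in PANDORA-seq and 49.3% in traditional-seq also matched another gene, and their part in this contrast was not tested.

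In PANDORA-seq, U12 reads came almost wholly from the 3′ end. There, 49.2 ± 10.7% of its reads began at position 117 and 46.8 ± 4.66% ended at position 150, 1 base before the end, and 97.6 ± 1.40% lay past the midpoint. In traditional-seq 77.6 ± 11.7% lay past it, the leading start was position 71 (9.50 ± 8.59%) and the leading ends were 151 (31.2 ± 16.8%) and 88 (12.2 ± 11.97%). In PANDORA-seq, U11 reads began at position 69 in 41.4 ± 14.1% and ended at 111 in 26.1 ± 20.2%. U6 reads of PANDORA-seq came from both ends of the RNA. Of these, 31.2 ± 18.5% began at position 7, 16.7 ± 11.7% began at position 83, and 40.0 ± 16.6% ended at position 106. The leading start and end in traditional-seq were 109 (7.88 ± 10.5%) and 134 (18.2 ± 12.5%) for U11. For U6 they were 8 (9.38 ± 5.63%) and 68 (15.9 ± 14.3%). U7 reads began at position 17 in 45.5 ± 5.72% in PANDORA-seq and at position 43 in 44.7 ± 7.66% in traditional-seq. A 5′ end of the intact RNA was rare in the fragments. Reads that began at the first base made up 0.00770 ± 0.00678% of U1 reads in PANDORA-seq and were not seen in traditional-seq, and those of U2 made up 0.0233 ± 0.0175% and 0.102 ± 0.136% (permutation p = 0.0206). In the U2 comparison the sign turned when sequences that also match another gene were left out.

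The Sm site was located by searching each reference for ATTTNTG or ATTTNNTG, a pattern that 23.3% of all 1383 snRNA transcripts hold on the sense strand and 36.3% on either strand. It was found at 126 to 132 in U1, 99 to 105 in U2, 88 to 95 in U5, 88 to 95 in U11, 75 to 81 in U12 and 119 to 125 in Gm24265, and not in the references of U6, U7 and U6atac. The share of fragments that covered it differed between families and protocols. For U2 it was 59.7 ± 16.2% in WT and 67.5 ± 15.2% in AD PANDORA-seq libraries (n = 8 each), and 8.12 ± 2.70% and 8.81 ± 1.24% in traditional-seq (n = 7 each). For U1 the values were 36.3 ± 13.5% and 39.4 ± 11.2% in PANDORA-seq and 4.96 ± 3.34% and 4.77 ± 3.24% in traditional-seq. U5 fragments ended before the site or within it, with 3.45 ± 0.932% and 3.31 ± 1.63% covering it in PANDORA-seq. U12 fragments of PANDORA-seq mostly lay after it, with 12.9 ± 4.49% and 11.9 ± 4.74% covering it, whereas traditional-seq had 22.7 ± 12.3% in WT and 42.3 ± 15.6% in AD libraries, the opposite order to U1 and U2. U11 had 76.9 ± 10.4% in WT and 51.5 ± 15.4% in AD PANDORA-seq libraries, and 2.94 ± 3.76% and 3.03 ± 4.92% in traditional-seq. PANDORA-seq fragments were also longer, and the part of length in these shares was not tested.

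**Figure D2:**
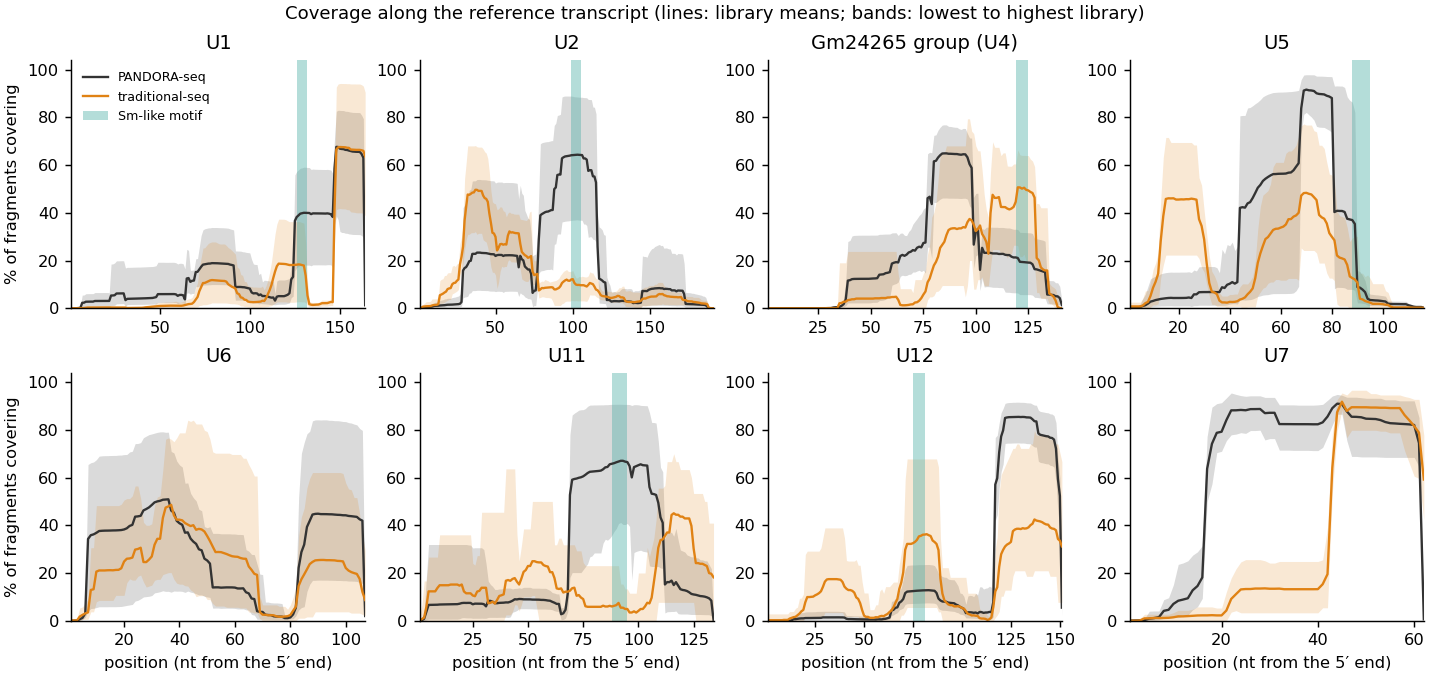
Each panel gives 1 snRNA, with the position in nt from the 5′ end on the x axis and the percent of that RNA's fragments that cover the position on the y axis (lines are means over libraries of a protocol, bands the lowest to the highest library, and the strip the Sm-like pattern). Coverage of U1 peaked near its 3′ end in both protocols (67.6% at position 148 in PANDORA-seq and 67.6% at position 150 in traditional-seq), while U2 peaked at position 103 in PANDORA-seq and at position 37 in traditional-seq.

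The protocols differed by a single base at the 3′ end. The share of U1 reads that ended at the last base was 1.24 ± 0.819% (SD, n = 16) in PANDORA-seq and 63.6 ± 16.9% (SD, n = 14) in traditional-seq, a difference of -62.4 points (permutation p = 1e-05, the smallest possible). When the last 3 bases were counted together, the shares were 64.6 ± 12.2% and 66.2 ± 18.4%, a difference of -1.56 points (permutation p = 0.782). Of the U1 reads that ended within the last 4 bases, 94.5 ± 2.78% ended 1 base short in PANDORA-seq and 96.3 ± 2.23% ended at the last base in traditional-seq. The same fragment in its full and its 1 base shorter form shows this best. In each full form below, the capital marks the last base that the shorter form lacks.
U1, positions 147 to 164: cgttcgcgctctcccctG
U1, 1 base shorter: cgttcgcgctctcccct
U7, positions 43 to 62: acttcggtcggaaaaccccT
U7, 1 base shorter: acttcggtcggaaaacccc
U12, positions 117 to 151: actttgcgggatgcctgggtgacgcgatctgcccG
U12, 1 base shorter: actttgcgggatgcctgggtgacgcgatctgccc

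The full U1 18-mer averaged 29.97 RPM and its 17-mer 848 RPM in PANDORA-seq. Traditional-seq gave 175 RPM for the 18-mer and 6.49 RPM for the 17-mer. The shorter form thus took 96.6% of the pair with PANDORA-seq and 3.58% with traditional-seq. It took 94.97% and 26.9% for U6 (positions 83 to 107), 97.8% and 29.5% for U7, and 90.0% and 10.1% for U12. U6 ends in a run of T, so that a loss of any T of the run gives the same shorter form. Over the last 4 bases, 91.9 ± 1.17% of U6, 89.8 ± 2.61% of U7, 82.3 ± 5.06% of U11 and 65.0 ± 3.15% of U12 reads ended 1 base short in PANDORA-seq. In traditional-seq, 44.1 ± 15.0% of these U6 reads, 70.2 ± 8.72% of U7 and 79.3 ± 16.9% of U12 ended at the last base, at as few as 6, 69 and 7 reads in a library. Some RNAs did not end mainly 1 base short in PANDORA-seq. U4atac had 74.1 ± 5.28% at the last base and 13.4 ± 3.19% 1 base short, and all of its reads match another gene as well. U6atac had 71.2 ± 4.79% 2 bases short and 4.79 ± 4.001% 1 base short, and U2 had 40.2 ± 11.8% and 12.9 ± 13.7%, from as few as 2 reads in a library.

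The same was measured on the 10 microRNAs most abundant in traditional-seq. Among reads that ended from 2 bases short of the mature end to 1 base past it, the share 1 base short had a median over the microRNAs of 70.1% with PANDORA-seq and 8.74% with traditional-seq. More reads ended 1 base short than at the mature end for 9 of 10 microRNAs in PANDORA-seq and for 1 of 10 in traditional-seq. In PANDORA-seq this share was over 50% for 6 of 10, while miR-9-5p ended mostly 2 bases short (57.4%) and miR-218-5p mostly 1 base past its end (62.5%). A missing last base was thus seen outside snRNAs too, at shares from 31.8 to 95.3% over these microRNAs. Which step of the protocol or of the adapter removal it comes from was not tested.

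**Figure D3:**
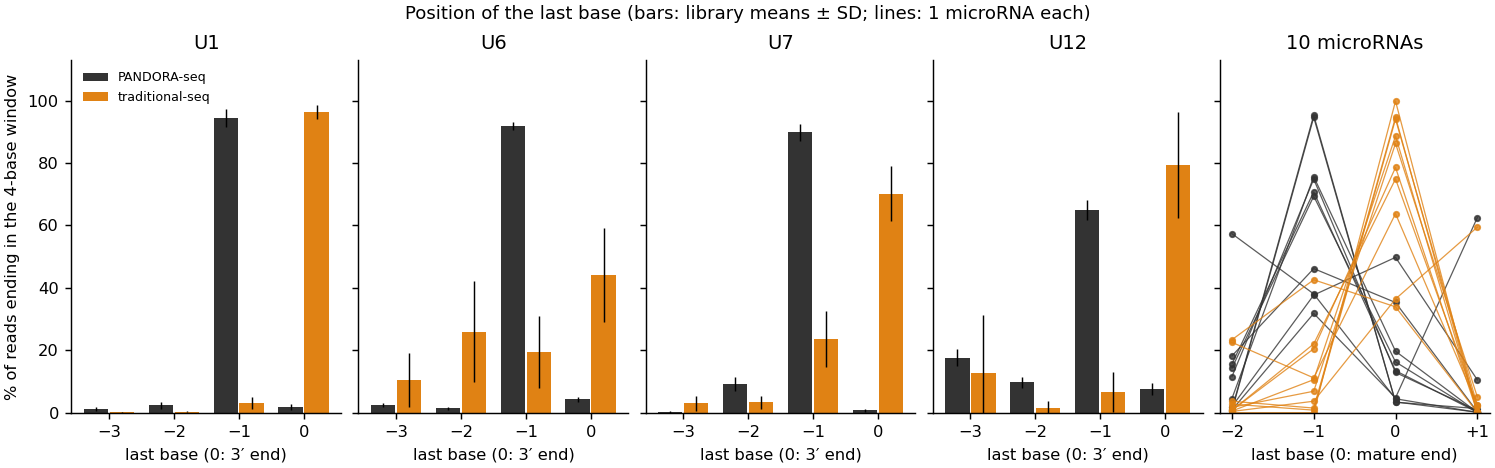
The bars give the percent of reads by their last base, from 3 bases before the 3′ end of the RNA (-3) to the end itself (0), as means ± SD over libraries of each protocol. The last panel gives 10 microRNAs, 1 line each, and in U1 the bar at -1 reaches 94.5% in PANDORA-seq against 3.21% in traditional-seq.

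Fragments were longer in PANDORA-seq. U1 reads averaged 29.2 ± 3.20 nt (SD, n = 16) in PANDORA-seq and 18.9 ± 1.02 nt (SD, n = 14) in traditional-seq, with modes of 39 and 18 nt. Reads of 37 to 42 nt made up 38.1 ± 12.1% of U1 by PANDORA-seq and 1.13 ± 1.23% by traditional-seq, and reads of 15 to 19 nt made up 33.9 ± 14.9% and 80.1 ± 11.8% (permutation p = 1e-05 each). U2 averaged 34.8 ± 1.88 and 24.4 ± 2.52 nt, U12 31.4 ± 1.31 and 24.9 ± 2.41 nt, and U7 38.7 ± 1.503 and 20.2 ± 0.982 nt. In U1 and U2, the families with at least 100 reads in every library, 8 of 10 length classes up to 42 nt differed between protocols at a permutation p under 0.05, and 9 of 10 when shares were taken over reads of 15 to 42 nt alone. The U7 45-mer, positions 17 to 61, made up 43.6% of U7 reads in PANDORA-seq, at the longest length the files hold, so longer U7 fragments were not measured.

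**Figure D4:**
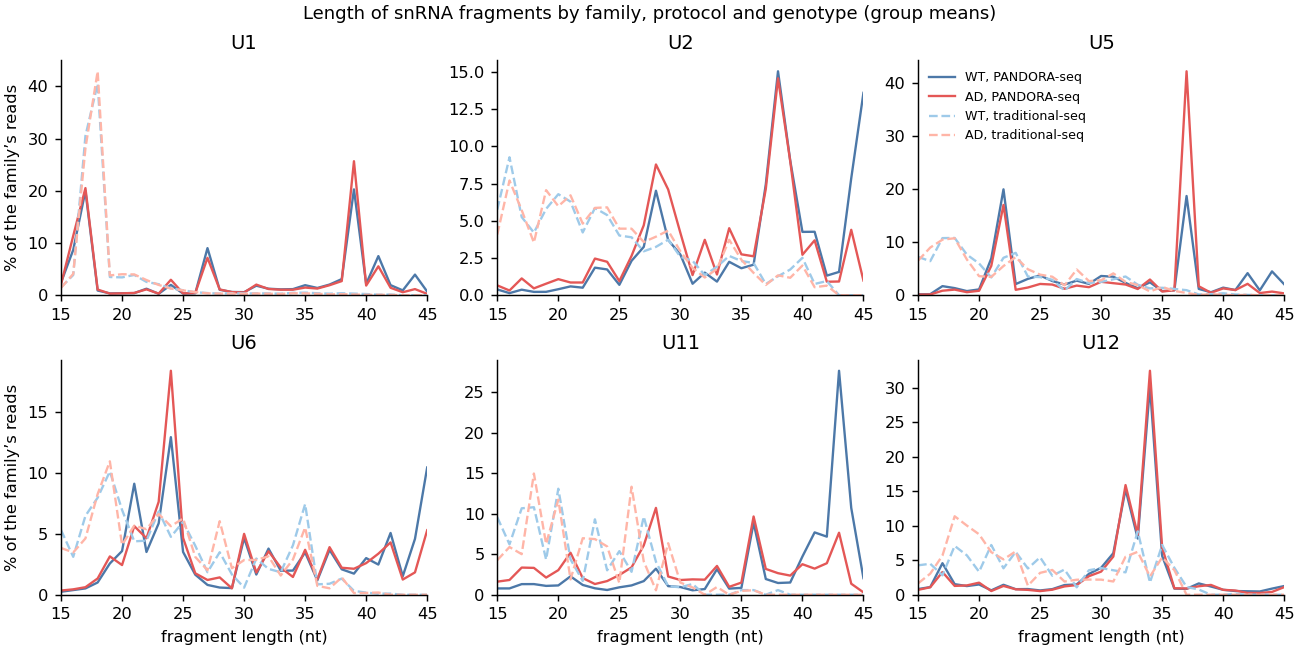
Each panel gives 1 family, with fragment length from 15 to 45 nt on the x axis and the mean percent of the family's reads at each length on the y axis, 1 line for each of the 4 groups of protocol and genotype. U1 peaked at 39 nt in PANDORA-seq and at 18 nt in traditional-seq, and U11 peaked at 43 nt in WT and at 28 nt in AD PANDORA-seq libraries.

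AD mice were then compared with WT mice within each protocol. No snRNA family was called by edgeR's quasi-likelihood test (adjusted p under 0.05 over all features and a change over 2-fold). In PANDORA-seq 0 of 18 families were called, against 0.0224% of all 22311 features, and 4 of 18 had an unadjusted p under 0.05, against 10.6% of all features. Of these 18, 15 had a log2 fold change above 0 and 3 below, where 57.2% of all features lay above 0. Their median was 0.50 beside 0.06 over all features. The 18 include U1, U2, U5 and U6 together with their unnamed copies, so they are not 18 separate RNAs. With DESeq2, too, no family was called. These signs lean on the scaling, since library size alone moved the median of all features to -0.34 and turned U6, U4, the U1-like and U6-like copies and U4atac below 0.

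U12 came nearest to a difference. It lay from 169 to 247 RPM with a median of 221 in the 8 WT libraries, and from 228 to 347 RPM with a median of 294 in the 8 AD libraries. The ranges overlapped in part, with 6 of 8 AD libraries above the highest WT library. Its log2 fold change was 0.76 (SE 0.25), with an edgeR adjusted p of 0.42 and a range of 0.12 to 0.66 over the alternatives. With library size alone as the scaling the log2 fold change was 0.43. The exact permutation test of the RPM values alone gave p = 0.00186 (two-sided, unadjusted over the families). U12 was the only 1 of 16 families with an exact p under 0.05, and the share of all features past this test is not given. Leaving out each library in turn kept the difference between 65.4 and 82.5 RPM. Over reads of 15 to 42 nt alone it was 50.9 RPM (exact permutation p = 0.0224).

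U5, which both spliceosomes use, was spread more widely. It lay from 116.5 to 280 RPM (median 153) in WT and from 95.4 to 894 RPM (median 264) in AD libraries, so AD libraries lay on both sides of the WT range. The log2 fold change was 1.06 (SE 0.41, edgeR adjusted p = 0.42) and the exact permutation p was 0.0819. Without AD replicate 7, at 894 RPM, the difference of means was 68.8 RPM (exact permutation p = 0.161) against 151 RPM with it. Without AD replicate 3 or AD replicate 8, both low, it was 183 and 182 RPM (exact permutation p = 0.0238 and 0.0261).

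U1 lay from 1869.7 to 5534 RPM (median 3342) in WT and from 1970.5 to 7445 RPM (median 4129) in AD libraries. The groups overlapped over most of their range (log2 fold change 0.51, SE 0.52, edgeR adjusted p = 0.70, exact permutation p = 0.274). The difference of means was 901 RPM, and 465 RPM without AD replicate 6. U2 lay from 484 to 5357 RPM (median 1627) in WT and from 310.1 to 4540.4 RPM (median 961) in AD libraries, with a log2 fold change of -0.29 (SE 0.47, edgeR adjusted p = 0.82, exact permutation p = 0.296). Without AD replicate 5, the highest AD library, the U2 difference of means was -1282 RPM (exact permutation p = 0.0890) in place of -831 RPM, and without WT replicate 7, the highest WT library, it was -382 RPM (exact permutation p = 0.576).

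U11, which pairs with the 5′ splice site of minor introns, lay from 15.8 to 105 RPM (median 22.2) in WT and from 4.42 to 32.2 RPM (median 17.6) in AD libraries. Its log2 fold change was -0.56 (SE 0.34, edgeR adjusted p = 0.52, exact permutation p = 0.103), and -0.10 over reads of 15 to 42 nt. The difference of means was -19.1 RPM, and -9.37 RPM without WT replicate 7, the library at 105 RPM. U4 had means of 117 ± 47.9 and 112 ± 32.2 RPM, U6 88.1 ± 48.5 and 83.5 ± 66.8 RPM, and U7 12.7 ± 2.50 and 14.6 ± 6.70 RPM in WT and AD mice (SD, n = 8 each), with exact permutation p-values of 0.831, 0.888 and 0.487. Their groups overlapped.

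In traditional-seq 0 of 14 families were called by edgeR and 0 by DESeq2, against 0% of 5816 features, and none had an unadjusted p under 0.05. U1 lay at 501 ± 198 RPM in WT and 473 ± 182 RPM in AD mice (SD, n = 7 each; exact permutation p = 0.800), U2 at 120 ± 64.3 and 112 ± 43.5 RPM (exact permutation p = 0.786) and U12 at 5.67 ± 3.11 and 6.20 ± 1.98 RPM (exact permutation p = 0.706). At these levels, U12 had as few as 26 reads in a library. The difference between protocols in the AD to WT ratio was tested too, and 0 of 16 families had a permutation p under 0.05, with the lowest at U11 (0.117). For U12 the log2 differences of the RPM values, without TMM scaling, were 0.42 by PANDORA-seq and 0.27 by traditional-seq (permutation p of the difference 0.710).

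The lengths of the fragments differed between WT and AD libraries in PANDORA-seq. Reads of 43 to 45 nt were fewer in the AD libraries over all RNAs, with 15.5 ± 3.19% in WT and 4.95 ± 2.90% in AD (SD, n = 8 each), so a difference between genotypes and one between the preparations of these libraries cannot be told apart. The share of U2 reads of 43 to 45 nt was 23.04 ± 8.58% in the WT libraries (10.9 to 34.7%) and 6.31 ± 3.30% in the AD libraries (1.69 to 10.7%; SD, n = 8 each). No AD library reached the lowest WT library (exact permutation p = 0.000155, the smallest the design allows). For U5 the share was 7.47 ± 3.22% (4.81 to 13.9%) in WT and 1.46 ± 1.28% (0.198 to 3.19%) in AD mice (exact permutation p = 0.000155). For U11 it was 40.4 ± 10.6%, from 22.95 to 54.2%, and 9.30 ± 9.85%, from 2.03 to 29.7% (exact permutation p = 0.000311). The U2 and U5 groups did not overlap and those of U11 did. The shares over all reads, 11.2 to 21.5% in WT and 2.13 to 10.7% in AD libraries, did not overlap either. The lack of overlap is thus not particular to U2 and U5.

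The fall of the long class was also seen in U1-like copies (32.1 ± 22.5% to 5.96 ± 3.36%, exact permutation p = 0.000155), U4atac (4.47 ± 1.18% to 1.28 ± 1.15%, exact permutation p = 0.000466), U6 (16.5 ± 4.71% to 8.36 ± 5.86%, exact permutation p = 0.00995) and U4 (4.51 ± 2.25% to 2.04 ± 1.22%, exact permutation p = 0.0163). In the U2-like copies it went from 12.1 ± 7.37% to 5.22 ± 3.83% (exact permutation p = 0.0339), and the p rose over 0.05 when any of 7 of the 16 libraries was left out, to at most 0.0662. In U1 it went from 5.58 ± 5.24% to 2.02 ± 1.54%, a difference of -3.57 points (exact permutation p = 0.0250). Without WT replicate 7, at 18.02%, the U1 difference was -1.79 points (exact permutation p = 0.0499), and leaving out AD replicate 1, 4, 6 or 7 raised its exact permutation p to between 0.0525 and 0.0570. In U7, the family with the largest long class, the share was 60.4 ± 4.48% in WT and 60.9 ± 7.47% in AD mice (exact permutation p = 0.883), and in U12 it was 2.62 ± 1.09% and 1.76 ± 1.95% (exact permutation p = 0.292). Without AD replicate 1, at 6.21%, the U12 difference was -1.495 points (exact permutation p = 0.0135) in place of -0.859 points. In the U5-like copies the difference was -3.46 points (exact permutation p = 0.325), and -6.18 points without AD replicate 1 (exact permutation p = 0.0104). In the mixed class it was -0.424 points (exact permutation p = 0.0844), with p from 0.00761 to 0.164 when 1 library was left out. Over 13 families with at least 100 reads in every PANDORA-seq library, 23 of 78 length classes had an exact p under 0.05, unadjusted, and 10 of 65 when only reads of 15 to 42 nt were counted. In traditional-seq 0 of 12 did.

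Within 15 to 42 nt, some differences had an exact p under 0.05. U11 reads of 20 to 24 nt took a share 4.42 points higher in AD mice (exact permutation p = 0.00995). U11 reads of 25 to 30 nt differed by 14.1 points (exact permutation p = 0.0305) and those of 37 to 42 nt by -20.4 points (exact permutation p = 0.0336). The p of the first rose over 0.05 when any of 5 libraries was left out, and that of the second when any of 9 was. U5 reads of 25 to 30 nt took a share 6.95 points lower (exact permutation p = 0.0120), and U2 reads of 15 to 19 nt 1.78 points higher (exact permutation p = 0.0266). The U2 value rose to p = 0.0502 without WT replicate 7 and to p = 0.0514 without AD replicate 7 (exact permutation).

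Single sequences were tested last. In PANDORA-seq, 1806 snRNA sequences of 188718 sequences passed the filter on low counts. Of these, 45 were called by edgeR, all lower in AD mice, where 1.92% of all sequences tested were called, 1.88% lower and 0.0403% higher. Among 156 snRNA sequences of 43 to 45 nt, the class that was lower over all RNAs, 37 were called (23.7%), against 19.7% of all sequences of that length. Among 1650 of 15 to 42 nt, 8 were called (0.485%), against 0.0584% of all sequences of that length. These were 6 of 403 snRNA sequences of 15 to 24 nt, against 0.0527% of all, and 2 of 1247 of 25 to 42 nt, against 0.06% of all. U2 had 16 called of 399 tested, U1 9 of 746, the U2-like copies 7 of 184, U5 4 of 78, the U1-like copies 3 of 36, and U11 2 of 16. U12 had 2 of 119 called, U5-like copies 2 of 39, and U6, U7 and U4 had 0 of 52, 12 and 101. Without AD replicate 5, 77 were called, and the share over all sequences in that fit is not given.

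The called sequences with the lowest adjusted p are shown next, since those of U2 and its unnamed copies begin and end at the same positions. On GRCm38 the U2 sequence lies at chr11:101658314-101658358 and that of U11 at chr4:132270103-132270147 (minus strand). The copies lie at chr1:72226316-72226360 (Gm25360), chr1:72255084-72255128 (Gm25939) and chr1:72237022-72237066 (Gm23472). The capitals mark the Sm-like pattern within each.
U2, 45 nt from position 77: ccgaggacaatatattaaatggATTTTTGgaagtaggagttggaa
Gm25360 (U2-like): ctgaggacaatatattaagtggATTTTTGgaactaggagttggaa
Gm25939 (U2-like): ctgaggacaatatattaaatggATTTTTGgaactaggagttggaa
Gm23472 (U2-like): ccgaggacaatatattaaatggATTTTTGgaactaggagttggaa
U11, positions 67 to 111: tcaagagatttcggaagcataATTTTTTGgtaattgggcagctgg

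The U2 45-mer lay from 7.15 to 43.5 RPM (median 24.8) in the 8 WT and from 0.0728 to 1.004 RPM (median 0.279) in the 8 AD PANDORA-seq libraries. Every AD library lay below every WT library (log2 fold change -5.91, SE 0.62, edgeR adjusted p = 7.41e-05). It was not read in traditional-seq, which holds no read of that length. The 3 copies of it from U2-like transcripts averaged 0.878, 1.09 and 4.57 RPM in WT and 0.0204, 0.0184 and 0.0757 RPM in AD libraries, with log2 fold changes of -5.25, -5.73 and -5.83 (edgeR adjusted p from 0.000179 to 0.000225). The U11 45-mer averaged 0.386 ± 0.193 RPM in WT and 0.00454 ± 0.00901 RPM in AD libraries (log2 fold change -5.97, SE 0.70, edgeR adjusted p = 0.000106). All of these 45-mers passed the filter on low counts only through their WT libraries. Their fold changes and p-values rest on that selection. The leading U2 fragment in the same place, the 38-mer from 78 to 115, averaged 242 ± 273 RPM in WT and 176 ± 270 RPM in AD libraries (log2 fold change -0.49, SE 0.94, edgeR adjusted p = 0.91). Without AD replicate 5, at 739 RPM, its AD mean was 95.2 RPM and the log2 fold change -1.66 (edgeR adjusted p = 0.39), and without WT replicate 7, at 684 RPM, its WT mean was 179 RPM and the log2 fold change 0.02 (edgeR adjusted p = 0.999).

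Of the 45 called sequences, 21 were 45 nt long, 13 were 44 nt and 3 were 43 nt. The 8 shorter ones came from 3 places. From U1, 5 sequences of 19 to 23 nt began at position 111 or 112. From U5, sequences of 18 and 27 nt began at position 63, and from U2 a 42-mer began at position 77. The U1 21-mer (chr11:87422977-87422997) and the U5 27-mer, from 63 to 89, had the lowest adjusted p of these. The U1 sequence is shown, with capitals again at bases of the Sm-like pattern.
U1, positions 111 to 131: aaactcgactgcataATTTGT

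The U1 21-mer averaged 0.386 ± 0.154 RPM in WT and 0.0246 ± 0.0400 RPM in AD PANDORA-seq libraries, with 2 AD libraries at 0 (log2 fold change -3.93, SE 0.61, edgeR adjusted p = 0.000942). In traditional-seq the same sequence averaged 3.05 ± 2.96 RPM in WT and 3.06 ± 2.53 RPM in AD libraries (SD, n = 7 each). The U5 27-mer averaged 0.323 ± 0.132 and 0.0178 ± 0.0205 RPM, with 3 AD libraries at 0 (log2 fold change -3.96, SE 0.63, edgeR adjusted p = 0.00124). All 8 shorter sequences needed their WT libraries to pass the filter on low counts, so their fold changes and p-values rest on that selection. In PANDORA-seq all 8 are rare, each under 1 RPM in mean. In a fit of sequences of 15 to 42 nt alone their log2 fold changes moved little, to -3.95 for the U1 21-mer. There the edgeR adjusted p of the U1 21-mer and of the U5 27-mer rose to 0.0533, and 0 sequences were called.

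The most abundant fragment of each RNA, where tested, was not called with all libraries in the fit. The U1 39-mer from 125 to 163 lay from 226 to 1331 RPM (median 565) in WT and from 359.8 to 2817 RPM (median 749.6) in AD libraries, with overlapping groups (log2 fold change 0.85, SE 0.54, edgeR adjusted p = 0.65). Without AD replicate 7, at 2817 RPM, the log2 fold change was 0.31 (edgeR adjusted p = 0.89). The U5 37-mer from 44 to 80 averaged 36.3 ± 43.7 RPM (median 15.6) in WT and 167 ± 231 RPM (median 73.3) in AD libraries (log2 fold change 2.36, SE 0.90, edgeR adjusted p = 0.29). Without AD replicate 7, at 686 RPM, the AD mean was 92.9 RPM and the log2 fold change 1.17 (edgeR adjusted p = 0.71), and without WT replicate 1, at 136 RPM, the WT mean was 22.1 RPM and the log2 fold change 3.09 (edgeR adjusted p = 0.13). The U12 34-mer from 117 to 150 averaged 62.6 ± 13.5 and 90.7 ± 35.3 RPM (log2 fold change 0.61, SE 0.35, edgeR adjusted p = 0.59). The U11 43-mer from 69 to 111 averaged 11.1 ± 12.1 and 1.78 ± 2.95 RPM (log2 fold change -2.64, SE 0.94, edgeR adjusted p = 0.24). Without AD replicate 5, at 8.46 RPM, its AD mean was 0.822 RPM and it was called (log2 fold change -4.05, edgeR adjusted p = 0.0123), and without WT replicate 7, at 35.1 RPM, the log2 fold change was -2.02 (edgeR adjusted p = 0.54). In traditional-seq 63 snRNA sequences of 24841 were tested, with 0 called by edgeR (0% of all) and 0 at an unadjusted p under 0.05. The leading one, the U1 18-mer shown above, averaged 176 ± 69.3 RPM in WT and 174 ± 53.3 RPM in AD libraries (log2 fold change -0.10, SE 0.37).

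**Figure D5:**
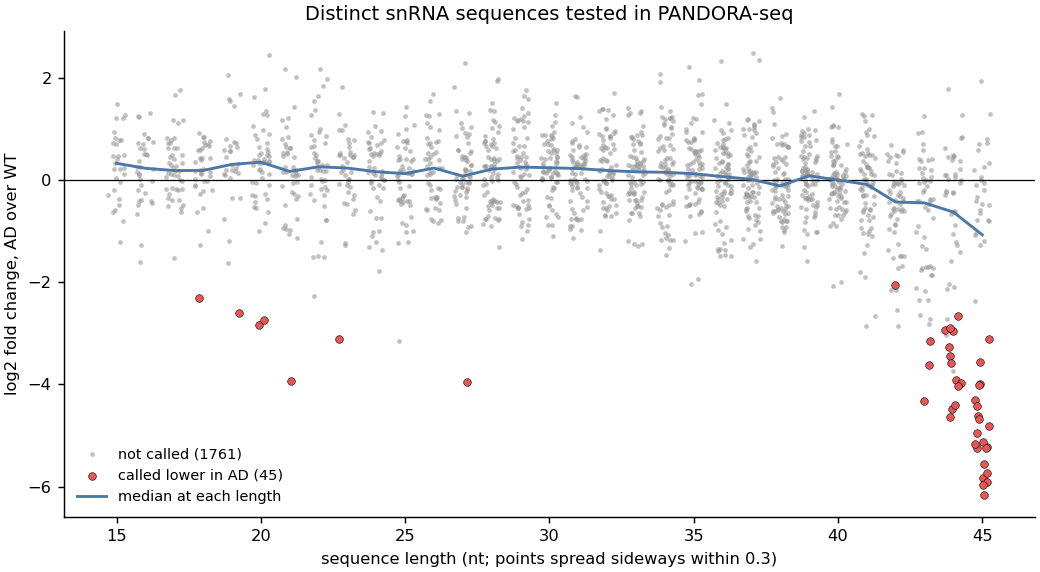
The plot gives each of the 1806 snRNA sequences tested in PANDORA-seq, with its length in nt on the x axis and its log2 fold change of AD over WT on the y axis, called sequences in another colour and the median at each length as a line. The 45 called sequences all lie below 0, and 37 of them are 43 to 45 nt long.

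Fragments of the mRNAs for spliceosome proteins were counted as a further check. Of 49 such genes, 47 passed the filter on low counts in PANDORA-seq and 0 were called, against 0.0224% of all features. An unadjusted p under 0.05 was found for 8 of them, against 10.6% of all features. A log2 fold change above 0 was found for 19 and below 0 for 28, where 57.2% of all features lay above 0. Their median was -0.06, beside 0.06 over all features. The highest were Prpf8, the scaffold protein at the catalytic centre, at 52.2 ± 29.3 RPM (SD, n = 16), Snrpn, an Sm protein of neurons, at 34.2 ± 25.2 RPM, and Sf3b1, a U2 particle protein that binds the branch point region, at 26.1 ± 14.4 RPM. In traditional-seq 13 of the genes passed the filter and 0 were called, against 0% of all features, with 0 at an unadjusted p under 0.05. Short fragments are no measure of the level of the intact mRNA.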

How the data were processed

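Small RNA of mouse prefrontal cortex was measured in 30 libraries. Per the methods, libraries were made with a NEBNext small RNA kit and sequenced on a NovaSeq, and the authors processed reads with SPORTS1.1. The deposited files give each library's trimmed sequences once each with a raw read count, not normalized and without coordinates. The labels name the build mm39, whereas the reference used here was GENCODE vM21 on GRCm38.

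Whole sequences of 15 to 45 nt were matched without mismatch, in the sense direction, to all transcripts of GENCODE vM21. The matcher was tested on simulated reads. RPM is a count per 1000000 reads of the library. A sequence in a named and an unnamed transcript counted for the named family. Transcripts with no Rnu symbol were grouped at 80% identity. Counts per feature and per distinct sequence were fitted with edgeR 4.0.16 (R 4.3.3; TMM, filterByExpr with a count of 10 and a total of 15, quasi-likelihood test), with p-values adjusted over the whole table and a call at adjusted p under 0.05 and a change over 2-fold. The fits were tested on simulated counts. DESeq2 1.42.0 was an alternative.

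RPM, length shares and end shares were compared by two-sided exact permutation tests between genotypes and by 100000 shuffles between protocols, on log2(RPM + 0.1) for levels between protocols and unadjusted over families. End and length tests used families with at least 100 reads in every library. Families at a median of 1 RPM in a group were given with values, and for each the most abundant sequence in each protocol and the called sequences with the lowest adjusted p were named. Further software was pandas 2.3.3, scipy 1.17.1, numpy 2.4.6 and Python 3.11.15. Further alternatives were reads of 15 to 42 nt, a loose filter, other scaling and denominators, sequences that match another gene left out, the replicate number as a block, and each library left out in turn. The members, lists and tests were chosen with earlier results of these data known. Sex was not analysed here. Some reference sequences are not reported here. Reads carry no molecular identifiers, so counts understate the error, and depth per library was 54926347 to 105876141 reads in PANDORA-seq and 9370669 to 17053412 in traditional-seq.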

Additional observations from a re-analysis of the deposited data

Results flagged for a closer look

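A library was noted where it stood apart from the others of its group by the gap between it and its nearest neighbour, relative to the range of the group (Dixon's criterion). Chance alone marks about 1 in 20 groups, and 7 of 64 combinations of family and group were marked. AD PANDORA-seq replicate 5 was the highest of its group in 4 families, with U2 at 4540.4 RPM, U6 at 239.7 RPM, the U2-like copies at 2211 RPM and the U6-like copies at 9.04 RPM. AD PANDORA-seq replicate 7 was the highest in U5, at 894 RPM, and in the U5-like copies, at 235 RPM. In AD traditional-seq replicate 5 the Gm22970 group, a divergent U2-like RNA, stood at 0.571 RPM. Values without AD replicates 5 and 7 are given with the U2 and U5 results.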

How the results depend on the processing

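Over the alternatives set for family calls, none called an snRNA family in either protocol. In PANDORA-seq the 45 called sequences became 0 over reads of 15 to 42 nt, 81 with DESeq2, 191 with a loose filter (at least 10 reads in all) and 54 in the replicate block fit, and leaving out each library in turn gave 40 to 77. With the loose filter, 56528 of all 3368138 sequences tested were called in PANDORA-seq. In traditional-seq it gave 1 called snRNA sequence in place of 0, with 321 of all 237632 sequences called. The number of snRNA sequences tested with the loose filter is not given, nor is the share over all sequences for the other fits. None of these counts can thus be read as more or less change in snRNAs. The count of families with an exact p under 0.05 between genotypes in PANDORA-seq was 1, became 4 with reads that match a transcript as denominator (U5, U6atac and Gm22970 joined U12), 2 on the log2 scale and 2 with the replicate block, and lay between 1 and 2 when each library was left out. End shares past the test numbered 3 and became 1 with a window of 3 bases, and length classes numbered 23, became 10 over 15 to 42 nt, and lay between 19 and 27 when each library was left out, an alternative chosen after seeing the data.

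Some differences turned sign. With the matched denominator the AD minus WT difference in PANDORA-seq turned to 1.34 RPM for U6, 17.1 for U4 and 0.516 for the U6-like copies, and over 15 to 42 nt to 15.5 RPM for the U1-like copies. In traditional-seq U4 turned to 0.0221 on the log2 scale. Between protocols, U7 turned from -0.62 (permutation p = 0.00392) to 0.356 with the matched denominator (permutation p = 0.0825), the U2 5′ end from -0.0787 points (permutation p = 0.0206) to 0.0173 points with shared sequences left out (permutation p = 3e-05), and the U2 3′ end to -0.0231 points with 3 bases and to -0.000779 points in AD libraries alone. In the test of the AD to WT ratio between protocols, U12 turned to -0.00697 and the mixed class to -0.123 over 15 to 42 nt. The cause was not tested. With 1 library left out, the PANDORA-seq difference ranged from -26.9 to 6.23 RPM for U6, -12.7 to 6.21 for U4, -16.7 to 6.86 for U1-like copies, -0.770 to 0.0110 for U4atac and -0.922 to 0.341 for U6-like copies. In traditional-seq it ranged from -76.7 to 25.7 RPM for U1, -19.8 to 5.88 for U2, -4.72 to 0.531 for U5, -0.907 to 1.52 for U6, -0.152 to 0.297 for U11, -0.121 to 1.32 for U12, -0.553 to 2.55 for U2-like copies, -1.84 to 1.18 for U4, -0.123 to 0.971 for the mixed class and -0.142 to 0.208 for U4atac.

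Libraries with the same replicate number were not more alike than others (correlations from -0.357 to 0.479 in PANDORA-seq, with 0 of 8 closest to their own number). These values cannot exclude that the numbers pair libraries in some other way, and the labels do not state it. In PANDORA-seq no family was called with the block either. Counts of the low families were small in traditional-seq, where U11 had as few as 9 reads in a library.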

Other observations

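Levels of some families moved together across the 16 PANDORA-seq libraries. All families share the library total as denominator, and 21 pairs of the 7 named families were computed with permutation p-values adjusted over the pairs. U2 and U6 had a Pearson r of 0.858 (permutation p = 1e-04, the smallest these permutations give, adjusted 0.0021) and a Spearman rho of 0.750 (permutation p = 0.0016, adjusted 0.0112). Without the 2 libraries farthest from the median of U2, r was 0.808, and it was 0.947 within WT and 0.828 within AD libraries. U2 and U11 had r 0.815 (adjusted permutation p = 0.0021) and rho 0.812 (adjusted permutation p = 0.00525), with 0.759 without those 2 libraries, 0.854 within WT and 0.735 within AD libraries. U6 and U11 had r 0.763 (adjusted permutation p = 0.0070) and rho 0.838 (adjusted permutation p = 0.0042). U1 and U2 ran opposite, with r -0.639 (adjusted permutation p = 0.0373) and rho -0.615 (adjusted permutation p = 0.0609), r -0.508 without the 2 libraries, -0.896 within WT and -0.409 within AD libraries. U12 was not related to U2 past the adjustment (r 0.148, adjusted permutation p = 0.820), with r 0.321 within WT and 0.812 within AD libraries.

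Antisense matches were rare. Reads on the opposite strand of a named family reached at most 0.447 RPM in a library, and those of unnamed transcripts averaged 3.07 RPM in PANDORA-seq and 3.66 RPM in traditional-seq.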
